A study of Mus musculus with 18 samples.

Results

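The genes described here are 33 genes of sterol and fatty acid synthesis, out of 28252 genes in the deposited TPM table and 53715 in the count table. They were found by gene symbol in the TPM table and by the matching Ensembl gene identifier in the count table, and all 33 were in both. The list was chosen by measured values: it was drawn up because *Hmgcs1* and *Thrsp* were higher in metaphase II (MII) oocytes grown *in vitro*, so the values of that comparison are given below as a description that supports nothing about the list, without p-values. RNA was sequenced from mouse oocytes at 3 stages, with 3 libraries *in vivo* and 3 *in vitro* at each stage (18 libraries). All mice were F1 females of the cross C57Bl/6j x CBA/J, with no mutation or transgene. For the small follicles, the *in vivo* group was ovaries taken from 14-day-old mice without culture, and the *in vitro* group was ovaries of 7-day-old mice cultured for 7 days in alpha-minimal essential medium with 10% fetal bovine serum, insulin, transferrin, selenium, follicle stimulating hormone and antibiotics. The oocytes of primordial follicles (flat granulosa cells) and of primary follicles (1 layer of cuboidal granulosa cells) were cut from stained paraffin sections by laser-capture microdissection (LCM), in which a laser cuts chosen cells out of a section. The MII group *in vitro* came from secondary follicles of such cultured ovaries, grown in alginate beads for a further 12 days with 5% serum and the same kinds of supplement and then exposed to human chorionic gonadotropin (hCG). The MII group *in vivo* was superovulated from 9 adult mice with human menopausal gonadotrophin and hCG. Each MII library held 10 oocytes, and LCM libraries pooled RNA from several caps. The LCM and MII libraries were made with different kits, so stage and kit cannot be told apart between them.

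Cells make cholesterol from acetyl-CoA through the mevalonate pathway to farnesyl diphosphate, squalene and a series of sterols, and make fatty acids from the same acetyl-CoA through malonyl-CoA. Genes of both pathways are textbook targets of the SREBP transcription factors (*Srebf1*, *Srebf2*), which the escort protein *Scap* carries out of the endoplasmic reticulum when sterols are low and which the *Insig* proteins hold back when sterols are high. In the ovary, mouse oocytes are known to make little cholesterol themselves and to receive products of this pathway from the cumulus cells around them. The 33 genes were divided by role into 7 genes of the mevalonate steps, 11 of the squalene and sterol steps, 6 regulators and carriers, 4 of fatty acid synthesis and 5 of desaturation and elongation.

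Promoter sequences of the genes were searched for short motifs, apart from their expression. Windows from RefSeq (build GRCm38.p6), from 250 bases before to 50 bases after each annotated start, were found for 26 of the 33 genes, and no window was found for *Sqle*, *Stard4*, *Scd1*, *Scd2*, *Fads1*, *Fdft1* and *Fdps*. A gene with several annotated starts was counted as holding a motif when any of its windows did, and both strands were searched. The 250 bases before the start are printed for 5 genes on which the MII comparison turns, 5′ to 3′ on the strand of the gene, with matches to the sterol element letters TCACNCCAC and to the letters CCAAT in capitals. Where ATTGG is in capitals, the match lies on the opposite strand. The regions are chr13:119690101-119690350 for *Hmgcs1* (plus strand), chr13:8885356-8885605 for *Idi1* (plus), chr8:64733579-64733828 for *Msmo1* (minus), chr5:28071162-28071411 for *Insig1* (plus) and chr7:97417551-97417800 for *Thrsp* (minus).
Hmgcs1: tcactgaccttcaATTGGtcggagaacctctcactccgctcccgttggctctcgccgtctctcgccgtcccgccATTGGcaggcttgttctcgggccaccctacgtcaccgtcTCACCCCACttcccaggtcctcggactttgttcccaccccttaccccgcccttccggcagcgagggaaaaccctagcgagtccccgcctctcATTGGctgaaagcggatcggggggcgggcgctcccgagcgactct
Idi1: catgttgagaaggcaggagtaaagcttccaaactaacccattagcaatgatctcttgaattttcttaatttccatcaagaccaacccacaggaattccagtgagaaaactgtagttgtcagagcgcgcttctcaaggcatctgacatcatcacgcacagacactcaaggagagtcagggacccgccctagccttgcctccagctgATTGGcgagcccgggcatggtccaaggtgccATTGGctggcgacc
Msmo1: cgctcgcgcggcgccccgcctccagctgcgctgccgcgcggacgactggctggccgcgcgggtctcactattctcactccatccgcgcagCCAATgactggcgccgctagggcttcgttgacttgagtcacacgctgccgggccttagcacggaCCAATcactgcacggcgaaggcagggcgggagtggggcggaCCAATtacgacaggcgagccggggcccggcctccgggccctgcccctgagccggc
Insig1: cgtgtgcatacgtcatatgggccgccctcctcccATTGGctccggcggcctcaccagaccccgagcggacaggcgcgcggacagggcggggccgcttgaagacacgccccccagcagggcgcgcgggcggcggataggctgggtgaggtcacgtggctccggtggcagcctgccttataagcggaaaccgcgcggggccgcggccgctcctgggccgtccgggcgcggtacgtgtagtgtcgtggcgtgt
Thrsp: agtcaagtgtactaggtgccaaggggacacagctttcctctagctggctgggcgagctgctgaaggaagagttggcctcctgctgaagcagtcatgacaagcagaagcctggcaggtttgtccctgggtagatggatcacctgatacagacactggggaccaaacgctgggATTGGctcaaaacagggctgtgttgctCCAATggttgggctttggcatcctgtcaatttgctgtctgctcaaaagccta

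The letters CCAAT, the core of the box bound by the factor NF-Y, stood in windows of 21 of the 26 genes (80.8%), against 41.1% of all 27025 genes with a window and 43% of the 11467 of these that were tested in the MII libraries. The GC box letters GGGCGG, known for binding Sp1, also stood in 21 of the 26 (80.8%), against 38.2% of all genes and 61.8% of those tested. The E-box letters CACGTG stood in 5 of 26 (19.2%), against 8.09% and 11%. TCACNCCAC stood in 1 of 26 (3.85%, against 1.44% and 1.33%), in *Hmgcs1*, as TCACCCCAC with its first base 137 bases before the start, and a longer form with no free base, searched as an alternative, in 0 of 26. The exact 95% binomial intervals of GGGCGG (60.6 to 93.4%), CACGTG (6.55 to 39.4%) and TCACNCCAC (0.0973 to 19.6%) held the share of the genes tested. The interval of CCAAT (60.6 to 93.4%) lay above that share, and those of CCAAT and GGGCGG lay above the share of all genes. The sets are not alike: the 26 genes had 34 windows and all 27025 genes 32851, and any window counted. The 26 also include *Fads2* and *Elovl6*, which were not tested in the MII libraries. The list is one of known pathway genes, so nothing is concluded about it from these intervals. In the printed sequences *Hmgcs1* and *Msmo1* each held 3 CCAAT matches, *Idi1* and *Thrsp* 2 and *Insig1* 1. Starts are those of RefSeq, and the starts of GENCODE differ from them for some of these genes. A match is a description of these letters, and not a shown binding site.

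Depth, as reads counted to genes, was 15149564 to 29205503 per LCM library (12 libraries) and 7334817 to 9978830 per MII library (6 libraries). Levels are given as CPM, the gene's reads relative to all reads of the library, after TMM scaling (an edgeR scaling that sets libraries to a common reference), and the floor was set at 3 reads, which was 0.103 to 0.198 CPM by library total in the LCM and 0.301 to 0.409 CPM in the MII libraries. Of the 33 genes, 12 to 30 were above the floor in single LCM libraries and 20 to 30 in single MII libraries. All 14 oocyte markers examined (*Gdf9*, *Zp3* and others) summed to 233 to 1314 CPM in LCM and 11305 to 21333 CPM in MII libraries, with at least 11 above the floor in every library, while 16 granulosa and cumulus cell markers summed to 118 to 2604 CPM in LCM and 69.9 to 157 CPM in MII libraries. In such pooled samples, fewer cells of a type and less RNA per cell cannot be told apart. Exons of 11 of the 33 genes overlap another annotated gene (*Hmgcs1*, *Idi1*, *Fdps*, *Fdft1*, *Lss*, *Cyp51*, *Tm7sf2*, *Srebf1*, *Scap*, *Scd2*, *Elovl6*), and since the use of strand and the handling of reads with several matches in counting are not given in the sources used here, their counts, and those of close paralogs such as *Scd1* and *Scd2*, are uncertain to that extent.

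**Figure D1:**
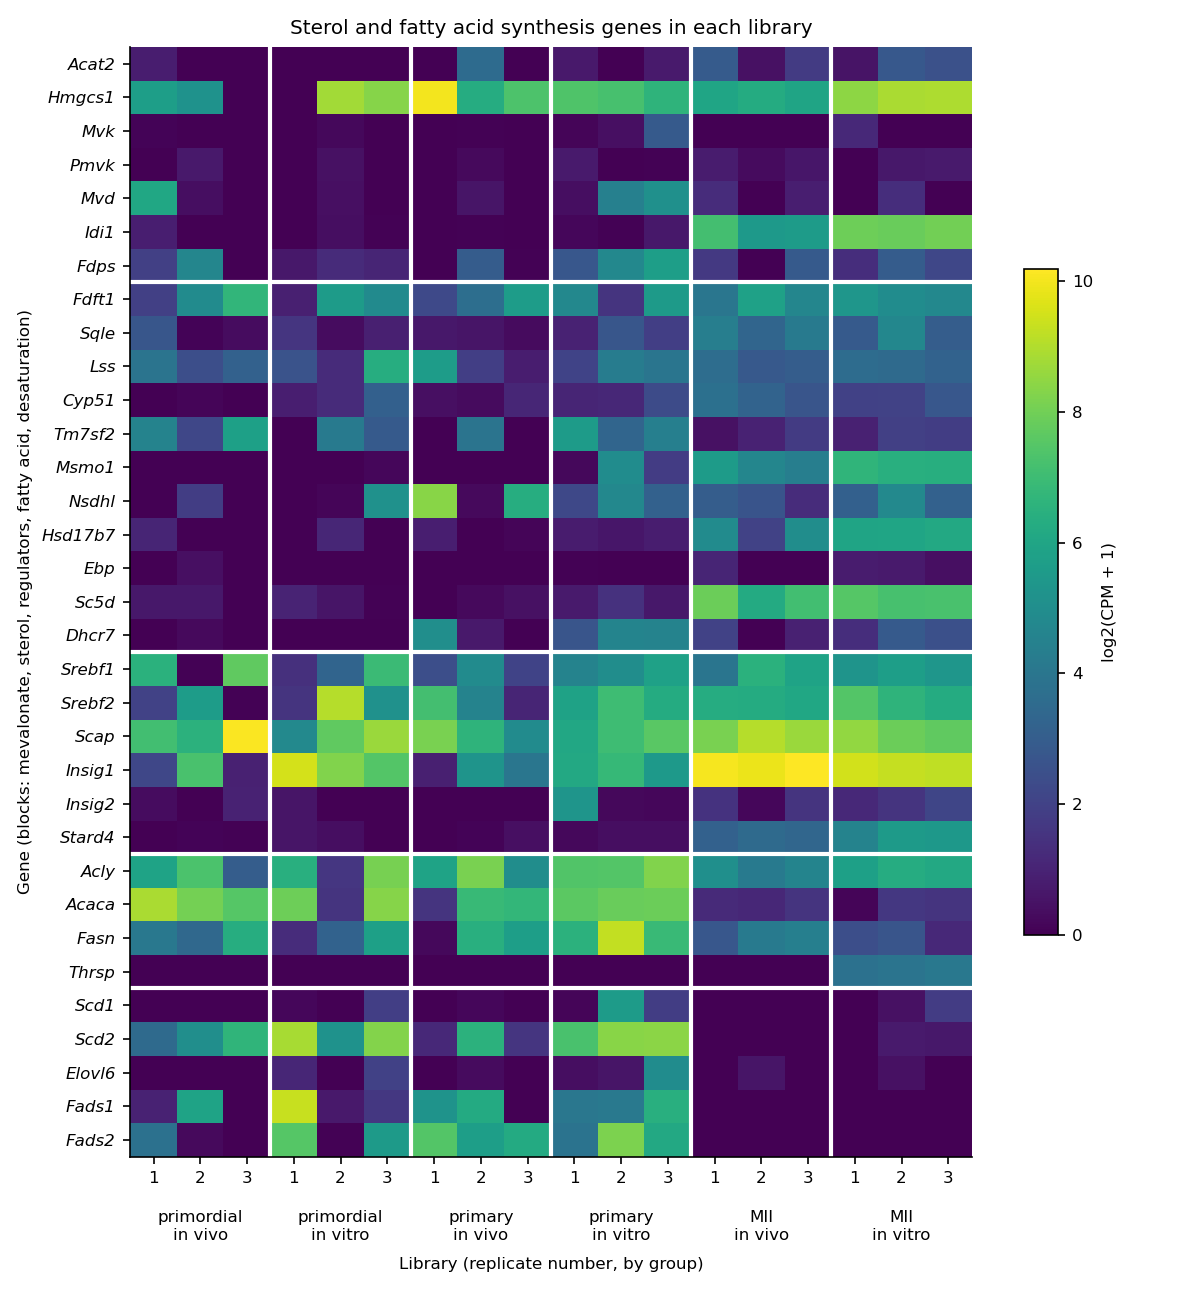
Level of each of the 33 genes (rows, in 5 blocks by role) in each of the 18 libraries (columns, by group and replicate number) as log2(CPM + 1), from dark (0) to yellow. The rows of *Idi1*, *Sc5d* and *Hsd17b7* are bright in MII libraries and dark in LCM libraries, the rows of *Scd2*, *Fads1* and *Fads2* are dark in MII libraries and brighter in most LCM libraries, and LCM libraries of 1 group differ widely.

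In MII oocytes, the mevalonate genes *Hmgcs1* and *Idi1*, the sterol genes *Msmo1*, *Hsd17b7* and *Nsdhl*, the cholesterol carrier gene *Stard4* and the fatty acid genes *Acly* and *Thrsp* were higher in all 3 libraries grown *in vitro* than in all 3 from the *in vivo* group, by 2.79-fold to 6.57-fold in mean CPM apart from *Thrsp*, which had no read *in vivo*. *Insig1* and *Fasn* were lower without overlap. These 8 higher and 2 lower genes were among 30 that passed the filter of 10 reads in total (9.37% of all 17144 such genes were higher without overlap and 6.81% lower). Without *in vitro* replicate 1 the genes higher without overlap were 14 (16.3% of all genes). The call rule of an adjusted p under 0.05 and a fold of at least 2 was met by *Hmgcs1* and *Thrsp* in the edgeR fit (0.35% of all genes, and 2.05% in DESeq2), which are the genes for which the list was drawn up. Nothing is read from these counts, since this comparison chose the list. The other 20 genes had overlapping groups, with log2 fold changes from -1.18 to 6.13 (median 0.26), 13 above 0 and 7 below, and *Elovl6*, *Fads1* and *Fads2* were under the filter. The median log2 fold change of the 30 was 0.65, against 0.04 over all genes tested. With group means under the floor set to it, the medians were 0.38 over 30 and 0.03 over 16739 genes.

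*Hmgcs1*, on chr13:119690379-119708260 (build GRCm38, plus strand), encodes the cytosolic synthase that makes HMG-CoA, the substrate of the rate-limiting step. Its level in the 3 MII libraries *in vivo* was 62.4, 75.9 and 61.2 CPM, and in the 3 *in vitro* 351, 468 and 490.5 CPM. The means were 66.5 ± 8.15 and 437 ± 75.1 CPM (SD, n = 3 each), a ratio of 6.57 and a log2 fold change of 2.72 (SE 0.33). *Idi1*, which isomerizes isopentenyl diphosphate, was at 141, 44.2 and 47.2 CPM *in vivo* and 246, 234 and 259.6 CPM *in vitro*. The 3 *in vitro* libraries of *Idi1* lay close together (247 ± 12.9 CPM, n = 3), while the *in vivo* libraries spread (77.5 ± 55.1 CPM), with replicate 1 nearest to the *in vitro* group. The log2 fold change was 1.67 (SE 0.44). The other 5 mevalonate genes had overlapping groups. *Mvk*, the mevalonate kinase, had reads only in replicate 1 *in vitro* (11 reads). *Mvd*, the decarboxylase, reached at most 2.44 TPM (counts scaled for gene length and library size), *Pmvk*, the phosphomevalonate kinase, at most 1.07 TPM, *Acat2*, a cytosolic acetoacetyl-CoA thiolase, at most 7.03 TPM and *Fdps*, the farnesyl diphosphate synthase, at most 4.93 TPM. In all 6 libraries the TPM of *Hmgcs1* (32.0 to 306) and *Idi1* (35.2 to 203) was above the highest value of these 5.

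Among the sterol genes, *Msmo1*, the C4-methyl sterol oxidase, was at 47.1, 24.6 and 19.6 CPM *in vivo* and 100.2, 85.1 and 83.6 CPM *in vitro* (log2 fold change 1.56, SE 0.40). *Hsd17b7*, which acts as a sterol ketone reductase in the same demethylation, was at 29.3, 3.001 and 31.2 CPM *in vivo* and 60.5, 62.2 and 69.9 CPM *in vitro* (1.60, SE 0.61). Replicate 2 of the *in vivo* group was far below the other two for *Hsd17b7*. *Nsdhl*, the dehydrogenase of that complex, was at 7.05, 5.28 and 1.44 CPM *in vivo* and 7.77, 26.8 and 8.07 CPM *in vitro* (1.63, SE 0.73). Its groups were separated by less than 1 CPM, and in the deposited TPM values they overlapped. By CPM these 3 genes were higher *in vitro*, which is a description of the comparison that chose the list. *Sc5d*, the lathosterol oxidase, was the sterol gene with the highest mean TPM in MII oocytes, at 238, 74.3 and 138 CPM *in vivo* and 179, 149 and 153 CPM *in vitro*, with overlap and a log2 fold change of 0.09. *Cyp51*, the lanosterol demethylase, was at 12.7, 8.52 and 5.46 CPM *in vivo* and 2.90, 3.03 and 5.83 CPM *in vitro* (-1.18), and overlapped by 1 library of each group. *Fdft1*, the squalene synthase, *Sqle*, the squalene epoxidase, and *Lss*, the lanosterol synthase, had means of 31.5, 15.0 and 8.24 CPM *in vivo* and 31.8, 12.9 and 9.87 CPM *in vitro*, and overlapped. *Tm7sf2* and *Dhcr7*, both sterol reductases, and *Ebp*, the sterol isomerase, stayed at or under 6.43 CPM in all 6 libraries, and overlapped.

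*Insig1* (chr5:28071363-28078662, plus strand), which retains the SREBP and *Scap* complex in the endoplasmic reticulum, was at 1046, 935 and 1165 CPM *in vivo* and 714, 625 and 598 CPM *in vitro*. Means were 1049 ± 115 and 646 ± 60.8 CPM (SD, n = 3 each), with a log2 fold change of -0.70 (SE 0.31). The related *Insig2* was between 0.120 and 3.36 CPM, with overlap. *Stard4*, which carries cholesterol between membranes, was at 8.01, 10.4 and 9.37 CPM *in vivo* and 22.3, 45.4 and 42.4 CPM *in vitro* (1.98, SE 0.46). *Stard4* was thus the third gene of the list, after *Thrsp* and *Hmgcs1*, by log2 fold change among genes without overlap. *Scap* was at 284, 534 and 406 CPM *in vivo* and 365, 235 and 206 CPM *in vitro* (-0.60). *Srebf2*, the SREBP known mainly for sterol genes, was at 79.1, 75.9 and 65.5 CPM *in vivo* and 173, 97.8 and 75.1 CPM *in vitro* (0.65). *Srebf1*, the one known mainly for fatty acid genes, was at 14.5, 90.3 and 58.5 CPM *in vivo* and 37.5, 51.8 and 39.8 CPM *in vitro*. The groups of *Scap*, *Srebf2* and *Srebf1* overlapped.

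*Thrsp* (chr7:97412938-97417730, minus strand) encodes Spot 14, a small protein linked to lipogenesis. It had 0 reads in all 3 MII libraries *in vivo* and 110, 150 and 142 reads *in vitro* (12.8, 14.2 and 15.9 CPM), and 0 reads in all 12 LCM libraries. Set against the floor of 3 reads per library, it was at least 41.7-fold higher *in vitro*. *Acly*, which splits citrate to cytosolic acetyl-CoA, was at 32.8, 16.8 and 23.2 CPM *in vivo* and 55.0, 77.9 and 70.0 CPM *in vitro* (1.48, SE 0.39). *Fasn*, the fatty acid synthase itself, was at 5.86, 17.3 and 20.1 CPM *in vivo* and 4.52, 5.48 and 1.23 CPM *in vitro* (-1.94, SE 0.71). The gap between the groups of *Fasn* was under 1 CPM, and in library-total CPM and in TPM they overlapped. *Acaca*, the acetyl-CoA carboxylase, was at 1.46 ± 0.35 and 1.40 ± 1.12 CPM (SD, n = 3 each). In this comparison, which chose the list, *Acly* was higher *in vitro* and *Acaca* overlapped near 1 CPM. *Fasn* was lower without overlap by TMM-scaled CPM but not by TPM.

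The 5 desaturation and elongation genes were at or near 0 in MII oocytes. The front-end desaturases *Fads1* and *Fads2* had 0 reads in all 6 libraries. The stearoyl-CoA desaturases *Scd1* and *Scd2* had 0 reads in the 3 libraries *in vivo*, and *in vitro* *Scd1* had 0, 4 and 22 reads and *Scd2* 0, 7 and 5 reads. *Elovl6*, which elongates palmitate, had 4 reads in 1 library of each group and 0 in the rest.

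**Figure D2:**
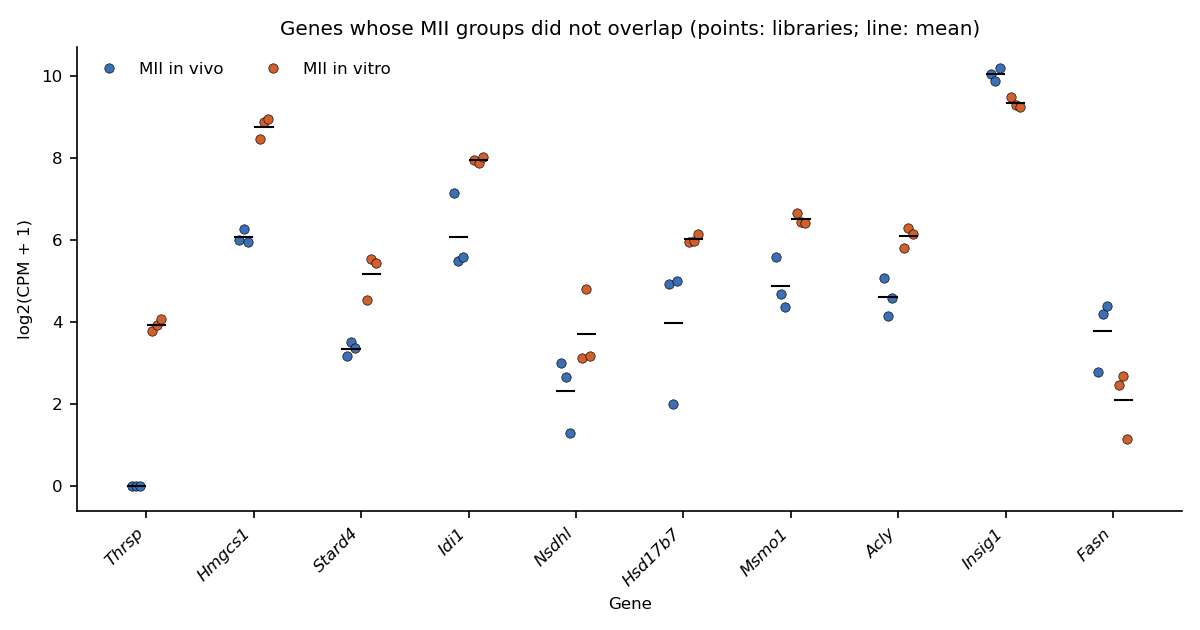
Level as log2(CPM + 1) of the 10 genes whose MII groups did not overlap (x axis, in order of log2 fold change), with 1 point per library, blue for *in vivo* and orange for *in vitro*, and a line at the mean of 3. *Thrsp* sits at 0 in all 3 libraries *in vivo*, *Hmgcs1* shows wide separation, and *Insig1* and *Fasn* lie lower *in vitro*.

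Markers of oocytes and of other cells in the MII libraries were as follows. The 14 oocyte markers summed to 13162 to 21333 CPM *in vivo* and 11305 to 14010 CPM *in vitro*. Of these 14, *Ddx4* (means of 28.0 and 330 CPM) and *Bmp15* (276 and 559 CPM) were higher *in vitro* without overlap (9.37% of all genes). *Gdf9* was lower without overlap (8801 and 5236 CPM, 6.81% of all genes). By edgeR only *Ddx4* of the 14 was called (0.35% of all genes). The 16 granulosa and cumulus cell markers summed to 69.9 to 157 CPM *in vivo*, with 4 to 6 above the floor, and to 76.1 to 113 CPM *in vitro*, with 6 to 10 above the floor. *Foxl2*, *Amhr2*, *Npr2* and *Tnfaip6* were at 0 reads in all 6 libraries, whereas *Inhba* had 0 reads in all 3 libraries *in vivo* and 15 to 51 reads *in vitro*. *Cyp19a1* made up most of the sum, at a mean of 71.8 CPM *in vivo* and 56.4 CPM *in vitro* (350 to 1039 and 334 to 655 reads), and *Kitl* was at 9.35 and 7.27 CPM. The 6 markers of theca and stroma summed to 0.618 to 11.04 and 0.336 to 4.29 CPM, with *Cyp17a1* and *Col3a1* at 0 reads. Of the 4 markers of endothelium and blood, *Pecam1* had 654 to 2105 and 1020 to 1353 reads, and *Cdh5*, *Ptprc* and *Hbb-bs* had 0. Genes with a read ranged from 14512 to 15622 *in vivo* and from 15442 to 18239 *in vitro*, with overlap. The part of these in the values above was not tested.

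In oocytes of small follicles, no gene of the list was called in any of the 5 comparisons. In each, 32 genes were tested by edgeR (all but *Thrsp*), and the adjusted p of the list lay between 0.303 and 1. Libraries of 1 group spread widely. In 38.7% of 119 pairs of a gene and a LCM group, 90% or more of the summed CPM came from 1 of the 3 libraries, against 8.62% of 58 such pairs in MII oocytes, and the common biological coefficient of variation was 2.02 against 0.726. DESeq2 called *Cyp51* in primordial culture (5.3% of all genes), *Mvd* in the interaction (3.62%) and *Nsdhl* between the stages *in vivo* (3.64%), so 1 of 32 each time, and none in the other 2 comparisons. The smallest p that an exact permutation test of 3 against 3 libraries allows is 0.1.

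In oocytes of primary follicles, 27 of the 32 tested genes had a log2 fold change above 0 in cultured ovaries against ovaries *in vivo*. The median was 1.67, against 0.44 over all 15317 genes tested. With group means under the floor set to it, the medians were 1.56 over 31 and 0.30 over 13477 genes. In 11 genes all 3 cultured libraries were above all 3 *in vivo* libraries (8.74% of all genes tested), and in 0 below (1.25%). Without *in vivo* replicate 2 the 11 became 17, with 22.7% of all genes. None of these was called by edgeR (0% of all genes were), and 2 had an unadjusted p under 0.05 (*Insig2* and *Msmo1*), against 9.66% of all genes. DESeq2 called 0 of the list (1.66% of all genes). The 11 came from every role: *Mvk* and *Idi1*, *Sqle*, *Msmo1* and *Sc5d*, *Insig1* and *Insig2*, *Acaca* and *Fasn*, *Scd2* and *Elovl6*. These are the same libraries in which the sum of granulosa cell markers differed. The 16 markers summed to 323 to 675 CPM in the *in vivo* and 1161 to 2604 CPM in the cultured group, with 3 to 10 and 9 to 12 above the floor. Genes with a read ranged from 6048 to 12240 and from 10565 to 13755. *Foxl2* had 214 to 2484 and 3568 to 8056 reads, but its groups overlapped by TMM-scaled CPM. Of the 12 granulosa cell markers tested, only *Npr2* was higher in culture without overlap (8.74% of all genes) and 0 were lower (1.25%). By edgeR 0 of the 12 were called, and 0 had an unadjusted p under 0.05 (9.66% of all genes). *Fshr*, *Has2* and *Ptgs2* had 0 reads in all 6 libraries, and 14 oocyte markers summed to 295 to 1314 and 265 to 496 CPM. The 6 markers of theca and stroma summed to 1217, 30135 and 703 CPM in the *in vivo* and 1054, 3451 and 1084 CPM in the cultured libraries. *In vivo* replicate 2, the library with the highest of these sums, was also the highest of its group for *Scd2*, *Acaca*, *Fasn* and *Insig1*. The 4 markers of endothelium and blood summed to 0, 267 and 329 CPM *in vivo* and 0.186 to 0.293 CPM in culture, with *Hbb-bs*, a haemoglobin gene, at 0 to 6607 reads *in vivo* and 0 in culture. The part of these in the difference was not tested.

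*Scd2*, the desaturase that makes oleate and palmitoleate in many mouse tissues, was at 1.23, 92.8 and 1.96 CPM in the *in vivo* libraries of primary follicles and 154, 333 and 342 CPM in the cultured ones (log2 fold change 3.11, SE 2.35, adjusted p = 0.711 by edgeR). *Acaca* was at 1.93, 116 and 107 CPM against 194, 234 and 237 CPM (1.57, SE 2.07, adjusted p = 0.940), and *Fasn* at 0.175, 84.4 and 51.5 CPM against 92.5, 601 and 118 CPM (2.58, SE 2.62, adjusted p = 0.872). In all 3 genes replicate 1 *in vivo* was the lowest library. *Insig1* was at 0.876, 37.7 and 15.2 CPM *in vivo* and 69.5, 113 and 43.9 CPM in culture (2.07, SE 2.33, adjusted p = 0.905). *Sqle* was at 0.584, 0.482 and 0.217 CPM against 0.976, 5.70 and 2.67 CPM (2.85, SE 3.21, adjusted p = 0.906). The other 6 were near the floor in most libraries. *Insig2* had 0 reads in the 3 libraries *in vivo* and 1179, 4 and 4 reads in culture, and *Msmo1* had 0 reads *in vivo* and 5, 701 and 82 reads in culture. For both, 1 library carried most of the reads. *Elovl6* had 0, 6 and 0 reads against 9, 11 and 971, *Mvk* 0, 1 and 0 against 3, 8 and 203, *Idi1* 0, 1 and 0 against 4, 1 and 18, and *Sc5d* 0, 5 and 7 against 20, 41 and 19. The separation of *Idi1* rested on 1 read in each of 2 libraries, and was absent by library-total CPM and by TPM.

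*Hmgcs1* did not share this direction in primary follicles. Its level was 1028, 78.5 and 161 CPM *in vivo* and 164, 147 and 97.4 CPM in culture, with overlap (log2 fold change -1.63, SE 2.04, adjusted p = 0.928 by edgeR), and without the first *in vivo* library the value was 0.19. *Nsdhl* was likewise high in 2 libraries *in vivo* (329, 0.201 and 80.3 CPM) and at 3.58, 26.0 and 8.00 CPM in culture. *Mvd* was at 0, 0.482 and 0 CPM *in vivo* and 0.293, 20.4 and 33.5 CPM in culture, with overlap. *Acly* was at 59.8, 282 and 31.1 CPM against 170.4, 175 and 307 CPM, also with overlap. The regulators *Scap* (28.9 to 283 CPM against 68.1 to 188), *Srebf1* (3.15 to 29.3 against 22.4 to 55.2) and *Srebf2* (1.09 to 139.9 against 57.6 to 131) overlapped as well.

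**Figure D3:**
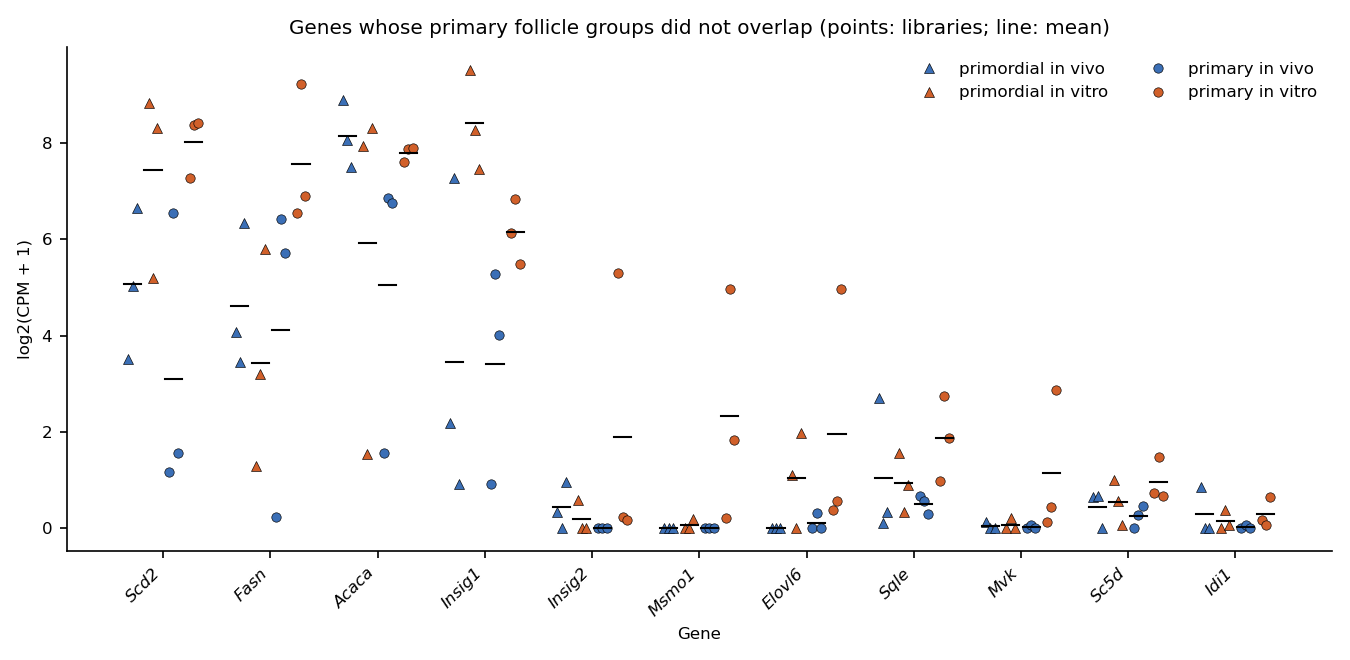
Level as log2(CPM + 1) of the 11 genes whose primary follicle groups did not overlap (x axis, in order of mean CPM in the cultured group), in the 12 LCM libraries, with triangles for primordial and circles for primary follicles, blue for *in vivo*, orange for *in vitro* and a line at the mean of 3. *Scd2*, *Fasn*, *Acaca* and *Insig1* are well above 0 in most libraries, and the other 7 rise above 2 on this scale in at most 1 library of a group.

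In oocytes of primordial follicles, the median log2 fold change of culture was 0.23 over the 32 genes (0.00 over all genes), with 17 above 0 and 15 below. The median ranged from -0.71 (without *in vitro* replicate 3) to 2.01 (without *in vivo* replicate 1) when single libraries were left out, and was -0.17 and -0.23 without *in vitro* replicates 1 and 2. None was called by edgeR (0.0326% of all genes), 1 had an unadjusted p under 0.05 (*Elovl6*, against 11.7% of all genes), and DESeq2 called *Cyp51*. Groups did not overlap for 2 genes, both higher in culture (2.04% of all genes higher, 4.55% lower), and without *in vitro* replicate 2 there were 6 (4.91%). *Insig1* was at 3.56, 154 and 0.887 CPM *in vivo* and 733, 306 and 176 CPM in culture (log2 fold change 2.94, SE 2.41, adjusted p = 0.639 by edgeR). By library-total CPM and by TPM the groups of *Insig1* overlapped. *Cyp51* had 0, 3 and 0 reads *in vivo* and 11, 37 and 159 reads in culture (6.24, SE 3.72, adjusted p = 0.463). *Elovl6* had 0 reads in the 3 libraries *in vivo* and 16, 0 and 61 reads in culture. *Hmgcs1* was at 51.3, 35.2 and 0 CPM *in vivo* and at 0, 435 and 321 CPM in culture (3.13, SE 2.16, adjusted p = 0.528), so that 1 library of each group had no read. *Scd2* overlapped by the same kind of spread, at 10.4, 31.7 and 99.96 CPM against 456, 35.4 and 318 CPM. All 5 desaturation and elongation genes had a log2 fold change above 0, and 5 of 7 mevalonate genes were below 0. Over all 15317 genes tested, 6536 were above 0 and 7526 below. The groups overlapped for every gene of either role, and several signs rested on few reads or 1 library. The granulosa cell markers summed to 118 to 860 CPM *in vivo* and 534 to 1910 CPM in culture, those of theca and stroma to 1107 to 2429 and 447 to 6128 CPM, and those of endothelium and blood to 0 to 26.7 and 0 to 64.4 CPM, and their part was not tested.

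The difference of the culture effect between primary and primordial follicles was tested as an interaction. No gene of the list was called by edgeR (0.104% of all genes were), 2 had an unadjusted p under 0.05 (*Insig2* and *Mvd*, against 11.5% of all genes), and DESeq2 called *Mvd*. *Mvd* had 1558, 8 and 0 reads in primordial follicles *in vivo* and 0, 9 and 0 in culture, whereas in primary follicles it had 0, 12 and 0 reads *in vivo* and 9, 473 and 1079 in culture. A single library held nearly all of its reads in the first of these groups. The interaction adjusted p of *Insig1* was 1.00 and that of *Fasn* 0.923, so a different effect at these stages was not detectable.

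Between primary and primordial follicles, no gene was called by edgeR *in vivo* (0.0522% of all genes) or in culture (0% of all genes). At an unadjusted p under 0.05 there were 0 genes *in vivo* (11.2% of all genes) and 1 in culture (*Dhcr7*, 10.9%), and DESeq2 called *Nsdhl* *in vivo* and 0 in culture (2.94% of all genes). *In vivo*, *Cyp51*, *Fads2* and *Hmgcs1* were higher in primary follicles without overlap (2.36% of all genes) and *Acaca* was lower (4.02%). *Hmgcs1* was at 51.3, 35.2 and 0 CPM in primordial against 1028, 78.5 and 161 CPM in primary follicles (log2 fold change 3.87, SE 2.24, adjusted p = 0.489 by edgeR). *Fads2*, the delta-6 desaturase, was at 13.1, 0.185 and 0 CPM against 177, 51.3 and 73.5 CPM. *Acaca* was at 472, 268 and 181 CPM against 1.93, 116 and 107 CPM (-2.04, SE 2.10, adjusted p = 0.767). *Nsdhl* had 0, 70 and 0 reads against 5635, 5 and 1477, with overlap. In culture, *Dhcr7*, *Fasn*, *Fdps* and *Msmo1* were higher in primary follicles (9.87% of all genes) and *Insig1* lower (1.34%). Without cultured primary replicate 1 or cultured primordial replicate 1, 2 or 3 the 4 higher genes became 7, 8, 9 and 7 (14.1%, 13.5%, 18.2% and 18.7% of all genes). *Dhcr7*, the last enzyme of the Kandutsch-Russell branch, had 0 reads in the 3 primordial libraries and 168, 538 and 726 reads in the primary libraries. *Fdps* was at 0.575, 1.37 and 1.06 CPM against 5.89, 25.8 and 50.8 CPM. *Fasn* was at 1.44, 8.25 and 54.7 CPM against 92.5, 601 and 118 CPM (3.65, SE 2.74, adjusted p = 0.647), and *Insig1* at 733, 306 and 176 CPM against 69.5, 113 and 43.9 CPM (-2.42, SE 2.36, adjusted p = 0.817). The comparisons of small follicles share libraries and are not independent of each other.

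Levels of different genes were compared per length, as the deposited TPM. In MII oocytes *in vivo* the means ran from *Insig1* (907 TPM) to *Scap* (149), *Sc5d* (79.9), *Idi1* (56.2) and *Hmgcs1* (38.8), and *in vitro* from *Insig1* (536) to *Hmgcs1* (251), *Idi1* (182), *Scap* (90.2) and *Sc5d* (84.3). Over the 6 libraries *Insig1* ranged from 471 to 1081 TPM, apart from all others, while the ranges of *Hmgcs1* (32.0 to 306), *Scap* (75.8 to 200.3), *Idi1* (35.2 to 203) and *Sc5d* (42.7 to 115) overlapped. In LCM oocytes *Fads2* (156 TPM), *Insig1* (143), *Hmgcs1* (139) and *Scd2* (96.2) led by mean, with ranges from under 1 TPM to 251 TPM or more in each, so their order lay within the spread. No test was made between LCM and MII oocytes. *Idi1* was at 0 to 0.789 TPM in the 12 LCM and 35.2 to 203 TPM in the 6 MII libraries, *Sc5d* at 0 to 1.11 and 42.7 to 115, *Hsd17b7* at 0 to 0.713 and 1.64 to 37.5, and *Stard4* at 0 to 0.266 and 3.38 to 24.4 TPM, all without overlap. *Scd2* was the opposite, at 0.554 to 251 TPM in LCM and 0 to 0.364 TPM in MII libraries. The 5 desaturation and elongation genes summed to 21.3 to 1140 TPM (median 217) in LCM and to 0 to 1.68 TPM in MII libraries. The sum over the 33 genes was 485 to 1945 TPM in LCM libraries, and in MII libraries 1256 to 1546 TPM *in vivo* and 1143 to 1629 TPM *in vitro*, which overlapped.

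**Figure D4:**
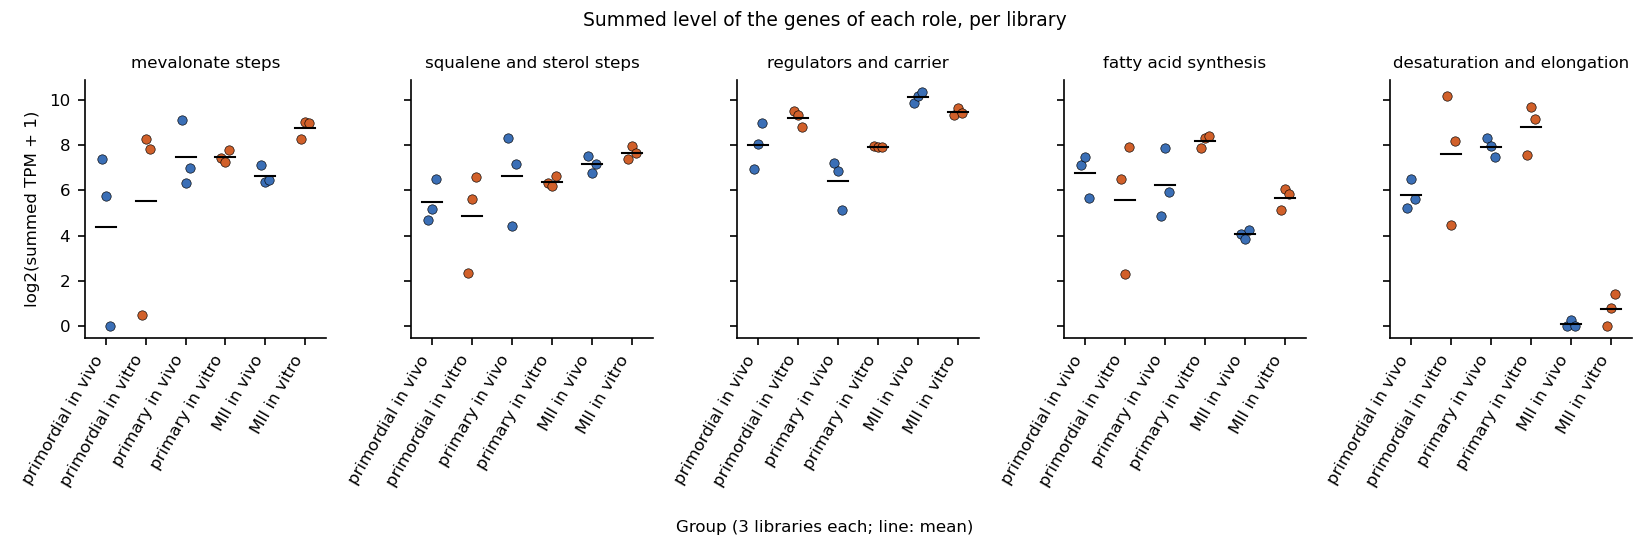
Summed TPM of the genes of each role (5 panels) as log2(sum + 1), with 1 point per library in each of the 6 groups on the x axis, blue for *in vivo*, orange for *in vitro* and a line at the mean of 3. The desaturation and elongation sums stand at 21.3 TPM or more in LCM libraries and at most 1.68 TPM in MII libraries, a difference in which stage and kit cannot be told apart.

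A wider list of 52 genes of the same pathways (SREBP processing, other isoprenoid branches, sterol transport and storage, other fatty acid and glyceride genes), of which 51 were found and 47 to 49 tested, had 0 genes called by edgeR in each of the 5 comparisons of small follicles (0% to 0.104% of all genes). Of the 49 tested there, 7 had an unadjusted p under 0.05 in primordial culture (11.7% of all genes), 3 in primary culture (9.66%), 5 in the interaction (11.5%), 7 between the stages *in vivo* (11.2%) and 4 between the stages in culture (10.9%). In MII oocytes 10 of 47 were higher *in vitro* without overlap (9.37% of all genes) and 3 lower (6.81%), with a median log2 fold change of 0.29 (0.04 over all genes). The 10 included *Acss2*, which makes acetyl-CoA from acetate, *Me1*, which yields NADPH, *Soat1*, which esterifies cholesterol, and *Plin2*, a lipid droplet coat protein. Also among the 10 were *Erlin2*, *Mbtps2*, *Stard3*, *Elovl1*, *Tecr* and *Acsl4*. The 3 lower were *Scarb1*, a receptor for high-density lipoprotein, *Acacb*, the acetyl-CoA carboxylase at the mitochondrial membrane, and *Dgat2*, which makes triglyceride. In primary follicles 5 of 49 were higher in culture without overlap, among them *Scarb1* and *Gpam* (8.74% of all genes), and 0 lower (1.25%), with a median of -0.03 (0.44 over all genes). In primordial follicles 3 were higher in culture (2.04%) and 4 lower (4.55%). Between the stages, 4 were higher (2.36%) and 4 lower (4.02%) in primary follicles *in vivo*, and 8 higher (9.87%) and 0 lower (1.34%) in culture.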

How the data were processed

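RNA of mouse oocytes was measured in 18 libraries of 6 groups, 3 libraries each, with stage, condition and replicate number taken from the sample labels. The authors used Trim Galore 0.4.1 for trimming, TopHat2 for alignment (mm10) and featureCounts for counting per gene, and these counts were deposited without normalization. The authors also deposited TPM, scaled for gene length and library size. The methods name Ensembl release 19 as the annotation, a number not checked here, and the strand setting and the handling of reads with several matches are not given in the sources used here. LCM libraries were made by linear amplification and a capture kit (TruSeq RNA Access), and MII libraries by Smart-seq II.

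Counts were fitted with edgeR 4.0.16 in R 4.3.3 (TMM, robust quasi-likelihood test, Benjamini-Hochberg adjustment), over genes with at least 10 reads in total. One model held the 12 LCM libraries (15317 genes), with the interaction of stage and culture, and another the 6 MII libraries (17144 genes). A gene was called at an adjusted p under 0.05 and a fold of at least 2. A log2 fold change above 0 means a higher level *in vitro* or in primary follicles. For floored folds, a group mean under the floor of 3 reads was set to that floor. Such a fold is a lower limit where a group had 0 reads. Genes with both means at or under the floor were left out, and floors cover counting error only. Of 53715 genes, 53620 were matched to GENCODE mouse release 21 (GRCm38), the source of gene coordinates and overlaps. Data were simulated with the estimated spread, capped at a highest value, and with a large change in genes above the median level. The fit missed all of these genes in the comparison of primary culture and found most in the MII comparison. A lack of calls in primary culture therefore does not show a lack of change. Other LCM comparisons were not simulated. They share the model and its wide spread, so a lack of calls there is not read as a lack of change either. Neither the labels nor the methods say that the 3 libraries of a group came from separate animals, so p-values measure the spread between these libraries, which may be technical.

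The genes and lists were chosen with earlier results of these data known. Values were given in every library for *Hmgcs1*, *Thrsp*, genes called or without overlap in the MII comparison, and the 2 of each role with the highest mean CPM in MII libraries, and other genes were named after their values were seen. Alternatives were DESeq2 1.42.0, limma 3.58.1 on log2(TPM + 1) and log2(TPM + 0.1), other scaling (RLE size factors, library size alone), other filters, no fold threshold, a replicate block, the compared groups alone or all 18 libraries, and leaving out each library. Non-overlap under other scales and without each library was added after seeing the data.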

Additional observations from a re-analysis of the deposited data

Results flagged for a closer look

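*Insig1*, whose protein retains SREBP in the endoplasmic reticulum, had fold changes of opposite sign with culture at different stages. Its log2 fold change was -0.70 in MII oocytes, 2.07 in oocytes of primary follicles and 2.94 in oocytes of primordial follicles. By TMM-scaled CPM its groups did not overlap at any stage, but in primordial follicles they overlapped by library-total CPM and by TPM. *Fasn*, the fatty acid synthase, also had opposite signs in MII oocytes (-1.94) and oocytes of primary follicles (2.58). Its groups did not overlap by TMM-scaled CPM, but its MII groups overlapped by library-total CPM and by TPM. In both genes the differences between MII and small follicles were not tested, since MII and LCM libraries were made with different kits, and the log2 fold changes of small follicles were not called by edgeR.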

How the results depend on the processing

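In small follicles edgeR called 0 genes of the list in all leave-one-out fits (0 to 0 in each comparison) and under all other edgeR and limma settings, which says nothing about stability where it called few genes at all. DESeq2 called 1 gene each for primordial culture (*Cyp51*), the interaction (*Mvd*) and the stages *in vivo* (*Nsdhl*). In MII oocytes, from whose calls nothing is read, the 2 calls (0.35% of all genes) became 6 with a filter of 1 read in total (1.22%), 6 by DESeq2 (2.05%), 0 with all 18 libraries (0%), 2 to 5 when single libraries were left out (5 without *in vivo* replicate 1, 2.25%) and 3 with the replicate block (0.496%). Deviations of same-numbered libraries correlated between -0.03 and 0.09, and the block called 0 genes of the list in small follicles. Given the wide spread of LCM libraries, these values cannot tell whether libraries of the same number share animals. The 11 genes higher without overlap in cultured primary follicles ranged from 11 to 17 when single libraries were left out (11.2% to 22.7% of all genes). They were 12 by library-total CPM (9.85% of all genes) and 12 by TPM (9.6%). Both lost *Idi1* and added *Fdps*, and *Cyp51* was added by library-total CPM and *Scd1* by TPM. In MII oocytes the 8 became 7 by TPM (8.35%), without *Nsdhl*, and the 2 lower became *Insig1* alone. By library-total CPM the 2 lower were *Cyp51* and *Insig1* (6.17% of all genes). In primordial culture the 2 higher genes became *Cyp51* alone by library-total CPM (1.9% of all genes) and by TPM (1.87%). Over all genes, edgeR against DESeq2 called 5 and 812 (primordial culture), 0 and 254 (primary culture), 16 and 554 (interaction), 8 and 557 (stages *in vivo*), 0 and 450 (stages in culture) and 60 and 351 (MII). The log2 fold change of *Hmgcs1* in primary follicles, -1.63, ranged from -2.12 to 0.19 and changed sign without *in vivo* replicate 1. Scaling moved the median of all genes in primary culture from 0.44 (TMM) to 0.17 (RLE) and 0.72 (library size), and that of the list from 1.67 to 1.43 and 1.93. In most LCM libraries, genes near the floor of 3 reads limit what can be told.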
